A study of Mus musculus with 4 samples.

Results

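The replication histone genes encode the core histones H2A, H2B, H3 and H4 and the linker histone H1, and are named by the clusters Hist1 to Hist4. They were taken as every gene symbol of the deposited RefSeq table that starts with Hist1h, Hist2h, Hist3h or Hist4h, which gave 66 of 19797 symbols. By class there were 6 H1, 18 H2A, 18 H2B, 12 H3 and 12 H4 genes. Hist1h2ba and Hist1h2aa, an H2B gene and an H2A gene known for their expression in the testis, were set apart from their classes, which left 64 genes. The RNA came from MC1-ZE7, a single mouse embryonic stem (ES) cell line of strain MC1 (129S6/SvEvTac) in which the fluorescent protein Emerald reports Zscan4, a gene family that is switched on in a small and changing share of ES cells. Both groups were cells of this line, without feeder cells and in medium with serum and leukemia inhibitory factor. They were sorted into a high Emerald fraction (Em+) and a fraction without Emerald (Em-), and each fraction gave 2 libraries of total RNA depleted of ribosomal RNA. Nothing in the labels ties the 2 libraries to different cultures or sorts, so a p-value here compares fractions with the spread of these libraries alone, and that spread may be technical. Where 2 values are given for a fraction, replicate 1 comes first.

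Replication histones package newly made DNA, and their genes are transcribed mainly in S phase, the part of the cell cycle in which DNA is copied. Their mRNAs end in a conserved stem-loop in place of a poly(A) tail. The stem-loop is bound by Slbp, and the mRNAs are degraded quickly when DNA synthesis stops. ES cells have a short first gap phase and spend much of their cycle in S phase. Libraries made from total RNA, as here, keep RNA without poly(A) tails, so these genes can be measured. In a sorted bulk sample, fewer cells in S phase and less histone mRNA per cell cannot be told apart.

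The stem-loop was looked for after the stop codon of GENCODE transcript models, by the histone stem-loop consensus in which the arms pair and the loop is rich in T. It was found in 42 of the 65 genes with a model, namely 4 H1, 11 H2A, 9 H2B, 8 H3 and 10 H4 genes. In all 42 the arms of the stem paired. The pattern itself fixed all but the middle bases of each arm, so only the pairing of those middle bases was not required. Among other genes of the table, 24 of 19312 transcripts (0.124%) held the pattern, there searched over the whole transcript. For 15 histone genes the model ended within 25 bases of the stop codon, so that a missing match says nothing about the transcript. These include Hist1h2ba and Hist1h2aa. The models of the other genes without a match ended 37 (Hist2h3b) to 2192 bases (Hist2h2be) after the stop codon. Whether they lack a stem-loop or only differ from the pattern was not tested. The examples below show the forms that separate H4 from the other classes. Capitals mark the 6-base arms of the stem, with the 4-base loop between them and 5 bases on each side. In all 10 H4 genes the stem differed from the one in the 32 matches of the other classes.
Hist1h2bg: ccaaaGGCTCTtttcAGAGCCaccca
Hist1h1t: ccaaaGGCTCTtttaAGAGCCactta
Hist2h2ac: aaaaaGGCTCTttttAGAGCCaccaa
Hist1h4d: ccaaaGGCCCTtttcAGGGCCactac
Hist1h4b: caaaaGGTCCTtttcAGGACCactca

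Promoters are shown for 2 divergent gene pairs that went opposite ways. Hist1h2ba and Hist1h2aa were higher in Em+ cells, and Hist1h2ae and Hist1h2bg had lower values there. Each line gives the 250 bases before the start of the gene from RefSeq on GRCm38.p6, the assembly also called mm10. The position of Hist1h2ba is chr13:23934157-23934406 on the minus strand and that of Hist1h2aa chr13:23934187-23934436 on the plus strand. Hist1h2bg is at chr13:23571150-23571399 on the plus strand and Hist1h2ae at chr13:23571221-23571470 on the minus strand. Capitals mark the octamer ATTTGCAT and the TATA motif TATAAA on either strand, and these letters do not overlap.
Hist1h2ba: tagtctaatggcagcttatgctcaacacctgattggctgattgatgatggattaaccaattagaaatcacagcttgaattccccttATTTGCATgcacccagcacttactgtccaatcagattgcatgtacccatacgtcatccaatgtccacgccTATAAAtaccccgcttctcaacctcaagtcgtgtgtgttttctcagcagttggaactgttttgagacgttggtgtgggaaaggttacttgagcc
Hist1h2aa: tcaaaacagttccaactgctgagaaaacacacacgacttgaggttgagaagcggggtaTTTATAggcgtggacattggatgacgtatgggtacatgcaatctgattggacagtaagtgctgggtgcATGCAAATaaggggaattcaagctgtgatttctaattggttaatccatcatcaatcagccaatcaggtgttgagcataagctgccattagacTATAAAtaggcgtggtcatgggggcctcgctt
Hist1h2bg: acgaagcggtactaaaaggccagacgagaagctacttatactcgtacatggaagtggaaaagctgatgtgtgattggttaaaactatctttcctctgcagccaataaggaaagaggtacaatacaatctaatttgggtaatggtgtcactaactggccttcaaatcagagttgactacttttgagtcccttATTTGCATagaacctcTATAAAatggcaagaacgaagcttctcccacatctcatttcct
Hist1h2ae: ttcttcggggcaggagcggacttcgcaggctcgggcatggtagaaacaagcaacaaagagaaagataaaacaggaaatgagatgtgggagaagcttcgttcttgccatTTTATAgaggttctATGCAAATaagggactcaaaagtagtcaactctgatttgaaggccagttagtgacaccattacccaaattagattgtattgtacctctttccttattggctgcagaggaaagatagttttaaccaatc

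In each of these pairs 1 octamer lay in the windows of both genes. Windows of 250 bases before to 50 bases after the start were matched for 56 histone genes. The octamer, searched on both strands, was in 7 of 16 H2A and 7 of 14 H2B windows, against 1.74% of 32851 promoters of all genes. An octamer in the windows of both genes of a divergent pair was counted for each gene, so these counts exceed the number of separate sites. It was in none of the 6 H1, 9 H3 and 11 H4 windows. TATAAA was in 44.4% (H3) to 66.7% (H1) of the windows of a class, against 13.6% of all promoters. CCAAT was in every H1, H2A, H2B and H3 window and in 3 of 11 H4 windows, against 37.4% of all promoters. AAACACA, known as the H1 box, was in 5 of 6 H1 windows and in 7.18% of all promoters. Among tested H2A and H2B genes outside the testis pair, the median log2 fold change was −0.40 for the 12 with the octamer and −0.37 for the 14 without it. A match describes the letters in a window and is not evidence of a bound factor.

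The RefSeq table held 16468218 to 18953217 counts per library, of which replication histone genes took 1.79% and 1.54% in Em+ and 2.29% and 2.01% in Em- libraries. Levels are given as rescaled FPKM, that is, read counts divided by transcript length and by library size. Library size here is the counts in tested genes (16238970 to 18761392) times a TMM factor, a scaling that sets most genes equal between libraries. The deposited FPKM used library totals of 35907715 to 37905778 instead. Levels given here are therefore higher than deposited FPKM. For example, Hist1h1a in Em+ replicate 1 was at 1462 as rescaled and at 717 as deposited. The 6 Zscan4 genes summed to 101 and 107 FPKM in the libraries titled Em+ and to 0.890 and 1.08 in those titled Em-, in the order the sample titles give, while the description field of the labels names the opposite fraction. All 9 ES cell markers were expressed, and their sums ranged from 3413 to 4047 FPKM. Both Em+ libraries were lower for 5 of the 9 (29.6% of all tested genes), among them Pou5f1 (log2 fold change −0.27, edgeR adjusted p = 0.161) and Sox2 (−0.29, edgeR adjusted p = 0.0933), and Nanog was called higher (0.48, edgeR adjusted p = 0.0192). Marker sums of endoderm, mesoderm, neuroectoderm and trophoblast ranged from 2.84 to 5.68 FPKM, and those of fibroblasts from 58.1 to 65.7 FPKM. In the fibroblast list, Thy1 was called higher, at 11.8 and 11.2 FPKM in Em+ and 6.05 and 6.44 in Em- libraries (log2 fold change 0.89, edgeR adjusted p = 0.00386). Vim, which held most of the fibroblast sum, was at 53.2 and 45.9 FPKM in Em+ and 57.7 and 52.3 in Em- libraries. Its groups overlapped (log2 fold change −0.15, edgeR adjusted p = 0.339). Col1a1 and Col1a2 were too low to be tested, at 0.63 FPKM or less, with both Em+ libraries higher. Col3a1 and Dcn had no entry. The part of these markers in the histone difference was not tested. Rn45s, a ribosomal RNA precursor, took 7.95% of the counts of Em+ replicate 2 and 3.93 to 4.33% of those of the others. Counts of Em- replicate 1 were computed from its FPKM, because its count column was empty.

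Apart from the testis pair, replication histone mRNAs had lower levels in Em+ than in Em- cells. Their summed level was 35347 and 31619 FPKM in Em+ and 45699 and 39557 in Em- libraries. Both Em+ libraries lay below both Em- libraries, and the Em+ mean was 78.5% of the Em- mean (33483 ± 2636 against 42628 ± 4343, SD, n = 2 each). Without Em- replicate 1 it was 84.6%, and without Em- replicate 2 it was 73.3%. The sum is a description and was not tested.

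Gene by gene the difference was small and rarely passed the test. Of the 66 genes, 59 had a mean deposited FPKM of at least 1 and were tested among 12050 genes with edgeR's quasi-likelihood test, p-values being adjusted over all of them by the Benjamini-Hochberg method. Hist1h2ba and Hist1h2aa rose and Hist1h2bg fell, so 3 were called, where 4.64% of all tested genes were called, 3.82% higher and 0.822% lower. All 57 tested genes outside the testis pair had a log2 fold change below 0, as had 49.3% of all tested genes. Their median was −0.36, against 0.00 for all tested genes, and they ranged from −0.61 (Hist1h2ae) to −0.18 (Hist1h2bj). A value below the histone median was seen in 3.77% of all tested genes.

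In 48 of the 57 genes both Em+ libraries were lower than both Em- libraries (84.2%, against 29.6% of all tested genes), and in 9 the groups overlapped. At an unadjusted p under 0.05, 43 of the 57 were lower, against 10.7% of all tested genes. Genes of a class share sequence and regulation, so these counts are not counts of independent events. The number that passed adjustment depended on the fit. DESeq2 called 22 of the 57 lower, against 1.25% of all tested genes. Other filters and scalings of edgeR gave 22 of 64 without the filter (1.47% of all genes), 19 of 60 with a filter of 10 counts (1.84%), and, of the 57, 26 without TMM (2.43%) and 1 without Rn45s (0.772%). Leaving out Em+ replicate 1 gave 42 (19.5%), leaving out Em+ replicate 2 gave 26 (6.9%) and leaving out Em- replicate 2 gave 26 (0.606%). In contrast, limma called 0 of the 57 with either pseudocount (0.556% and 0.448% of all genes), and edgeR called 0 without Em- replicate 1 (0.274%), 0 in the known-gene table (0.493%) and 2 of 58 in the Ensembl table (0.634%). All 57 stayed below 0 when each of the other libraries was left out. Without Em- replicate 1, 55 of 57 were below 0, against 49.4% of all tested genes, and their median was −0.21. The exceptions were Hist1h3f (0.10) and Hist2h3b (0.045).

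**Figure D1:**
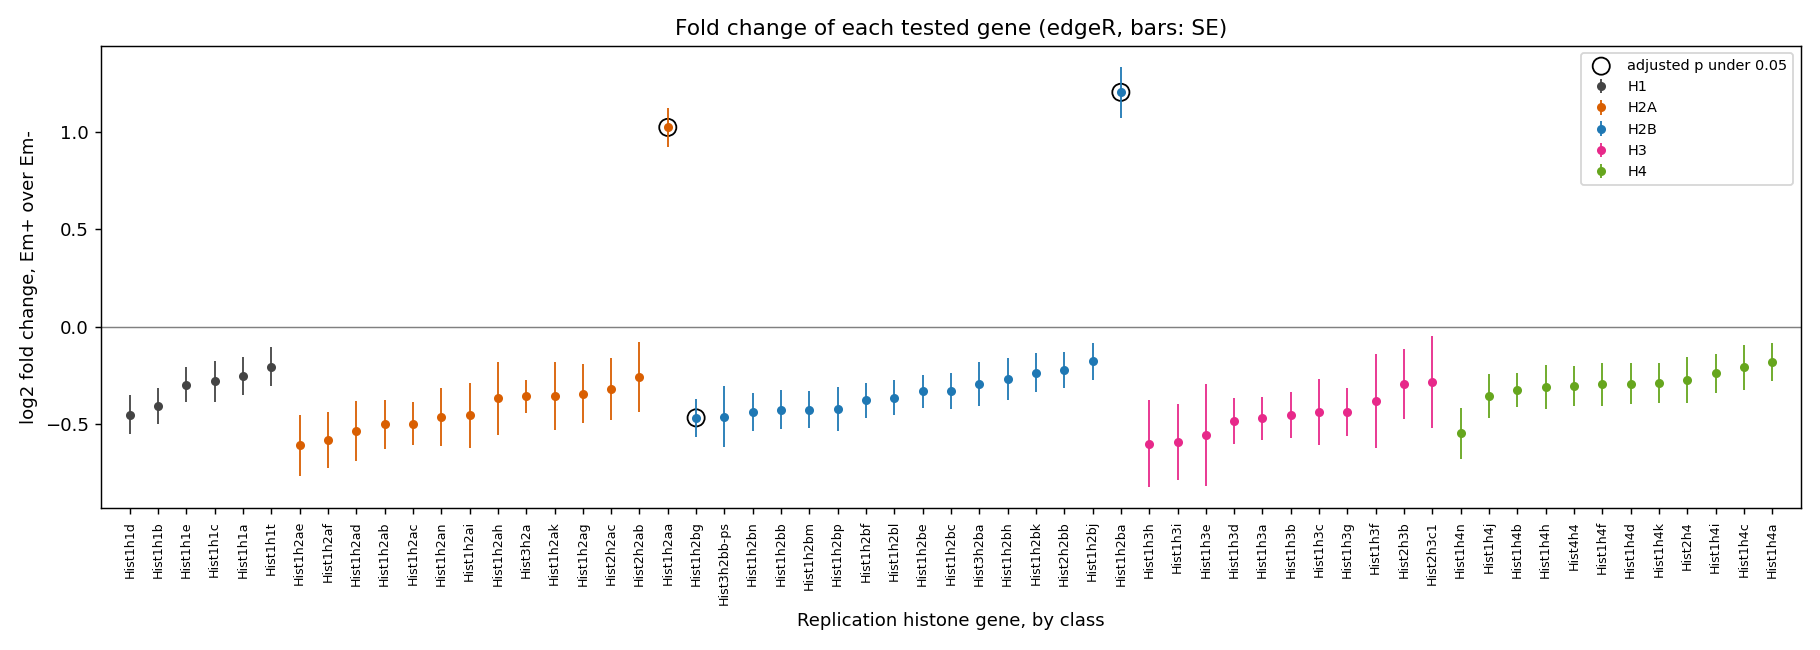
Log2 fold change of Em+ over Em- (y axis, bars: SE) for the 59 tested replication histone genes (x axis), coloured by class, with circles around genes with an adjusted p under 0.05. All genes lie between −0.61 and −0.18 except Hist1h2aa and Hist1h2ba, which lie above 1.

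The linker histone H1 binds where DNA enters and leaves the nucleosome. Its 6 genes summed to 6345 and 5533 FPKM in Em+ and to 7704 and 7256 in Em- libraries. The groups did not overlap, and the Em+ mean was 79.4% of the Em- mean. Hist1h1c had the highest H1 level averaged over the 4 libraries, at 1736 and 1534 FPKM in Em+ and 2099 and 1864 in Em- libraries (log2 fold change −0.28, SE 0.11, edgeR adjusted p = 0.162). Hist1h1d, the higher of these genes by the mean of the Em- libraries, was at 1572 and 1381 FPKM in Em+ and 2087 and 1946 in Em- libraries. With −0.45 (SE 0.10, edgeR adjusted p = 0.0517) its log2 fold change was the lowest of the class and missed the threshold narrowly. Hist1h1a was at 1462 and 1253 FPKM in Em+ and 1611 and 1620 in Em- libraries. In all 6 H1 genes both Em+ libraries were below both Em- libraries, against 29.6% of all tested genes, and none passed the adjusted threshold. Hist1h1t, the testis H1, did not share the rise of the testis H2A and H2B genes. It was at 80.2 and 66.3 FPKM in Em+ and 84.1 and 84.7 in Em- libraries (log2 fold change −0.20, SE 0.10, edgeR adjusted p = 0.252).

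H2A and H2B form the dimers that flank the H3-H4 tetramer of the nucleosome. The 17 H2A genes summed to 3264 and 3131 FPKM in Em+ and to 5056 and 3695 in Em- libraries. Em- replicate 1 stood 1.37 times above Em- replicate 2, so the size of the difference rests largely on that library. The Em+ mean was 73.1% of the Em- mean, and 86.5% without Em- replicate 1. Of the 17 genes, 13 were tested and none was called, where 0.822% of all tested genes were called lower. In 10 of the 13 both Em+ libraries were lower, against 29.6% of all tested genes. Hist1h2ab, the most abundant, was at 689 and 662 FPKM in Em+ and 1088 and 822 in Em- libraries. Its log2 fold change was −0.50 (SE 0.12, edgeR adjusted p = 0.0678). Hist1h2ae had the lowest log2 fold change of all, −0.61 (SE 0.16, edgeR adjusted p = 0.0734), with 276 and 268 FPKM in Em+ and 493 and 336 in Em- libraries. Hist1h2ak, in contrast, overlapped between groups, at 455 and 416 FPKM in Em+ and 674 and 440 in Em- libraries. Only Em- replicate 1 was high for this gene.

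The 17 H2B genes summed to 10994 and 9515 FPKM in Em+ and to 13599 and 12764 in Em- libraries. Here the Em- libraries differed by a factor of 1.07, and the Em+ mean was 77.8% of the Em- mean, or 80.3% without Em- replicate 1. Of the 15 tested, 14 had both Em+ libraries lower (29.6% of all tested genes), and Hist1h2bg was called lower (0.822% of all tested genes). Hist1h2bg had the highest H2B level averaged over the 4 libraries (chromosome 13, 23571400 to 23571863, mm10), at 2260 and 1954 FPKM in Em+ and 2963 and 2858 in Em- libraries. It fell by 0.47 on the log2 scale (SE 0.099, edgeR adjusted p = 0.0438), which is just inside the threshold. The call was lost without Em- replicate 1 (adjusted p = 0.372), without Em- replicate 2 (0.230), with limma (0.282 and 0.300), without TMM scaling (0.0503) and in the known-gene table (0.0771), all adjusted over all genes of the same fit. The direction was the same in all 15 alternatives. Hist1h2bb stood close to it in level, and above it in Em+ replicate 2, at 2242 and 1980 FPKM in Em+ and 2952 and 2716 in Em- libraries (log2 fold change −0.42, SE 0.099, edgeR adjusted p = 0.0575). Hist2h2bb was at 1577 and 1362 FPKM in Em+ and 1699 and 1727 in Em- libraries (log2 fold change −0.22, SE 0.092, edgeR adjusted p = 0.189). The only tested H2B gene with overlapping groups was Hist1h2bj, at 413 and 374 FPKM in Em+ and 483 and 407 in Em- libraries.

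H3, the histone with the tail best known for regulatory methylation and acetylation, was the class with the lowest summed level. Its 12 genes gave 2300 and 2345 FPKM in Em+ and 3817 and 2658 in Em- libraries. Em- replicate 1 was 1.44 times above Em- replicate 2, the widest gap of the 5 classes. The Em+ mean was 71.7% of the Em- mean and 87.4% without Em- replicate 1. None of 11 tested H3 genes was called, where 0.822% of all tested genes were called lower, and in 8 both Em+ libraries were lower, against 29.6%. Hist1h3b was at 530 and 486 FPKM in Em+ and 781 and 607 in Em- libraries (log2 fold change −0.45, SE 0.12, edgeR adjusted p = 0.0762). Hist1h3d was at 384 and 358 FPKM in Em+ and 584 and 454 in Em- libraries. Both Em+ libraries were lower for both genes. Hist1h3c, at 300 and 335 FPKM in Em+ and 516 and 344 in Em- libraries, had Em- replicate 2 only slightly above Em+ replicate 2. The lowest fold change of the class was that of Hist1h3h (−0.60, SE 0.22, edgeR adjusted p = 0.158), with 197 and 220 FPKM in Em+ and 403 and 230 in Em- libraries.

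H4 was the class with the highest summed level, 12444 and 11095 FPKM in Em+ and 15523 and 13184 in Em- libraries. The Em+ mean was 82.0% of the Em- mean and 89.3% without Em- replicate 1. All 12 H4 genes were tested, and none was called (0.822% of all tested genes were called lower). In 10 both Em+ libraries were lower, against 29.6% of all tested genes. Hist1h4d had the highest level of any replication histone gene, at 3353 and 2945 FPKM in Em+ and 4067 and 3634 in Em- libraries (log2 fold change −0.29, SE 0.10, edgeR adjusted p = 0.150). Hist1h4f was at 1694 and 1422 FPKM in Em+ and 2043 and 1777 in Em- libraries. Hist1h4k was at 1569 and 1495 FPKM in Em+ and 2051 and 1695 in Em- libraries. In these 3 genes both Em+ libraries were lower. Hist1h4n had the lowest H4 fold change (−0.55, SE 0.13, edgeR adjusted p = 0.0620), at 179 and 146 FPKM in Em+ and 263 and 212 in Em- libraries. Hist1h4a had the highest (−0.18, SE 0.098, edgeR adjusted p = 0.291), and its groups overlapped.

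**Figure D2:**
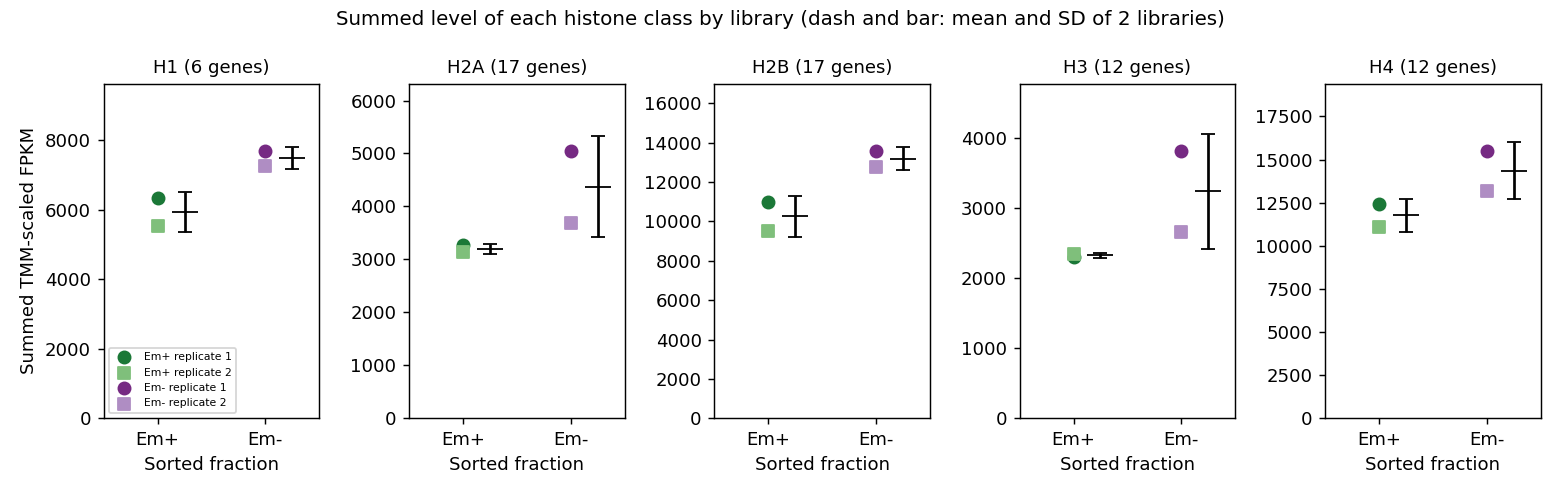
Summed TMM-scaled FPKM of each histone class (y axes, each from 0) in the 2 Em+ and 2 Em- libraries (x axes), with the mean and SD of each fraction beside the points. Both Em+ points lie below both Em- points in every class, and Em- replicate 1 stands apart from Em- replicate 2 in H2A (1.37 times) and H3 (1.44 times).

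The classes kept the same order of share in every library. H4 made up 33.3 to 35.2% of the summed histone FPKM of a library, H2B 29.8 to 32.3%, H1 16.9 to 18.3%, H2A 9.23 to 11.1% and H3 6.51 to 8.35%. The highest H2A and H3 shares and the lowest H2B and H1 shares were those of Em- replicate 1. The class levels do not stand in equal amounts, although the core histones do so in the nucleosome. H2A and H3, the classes with the lowest core histone levels, also had the most sequence in common with other genes. Over the coding sequence, the median share of 50-base stretches also found in another gene was 84.6% for H2A and 84.7% for H3, 77.3% for H2B, 62.6% for H4 and 10.9% for H1. Over 63 genes the Pearson correlation of this share with the log2 mean level was −0.28, a description over genes that share sequence and libraries. How the authors' counting treated reads that match several genes is not given in the sources used here, and its part in the levels was not tested. Single H2A, H2B, H3 and H4 genes are therefore uncertain as separate entries, including Hist1h2bg, for which the shared share was 85.2%.

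**Figure D3:**
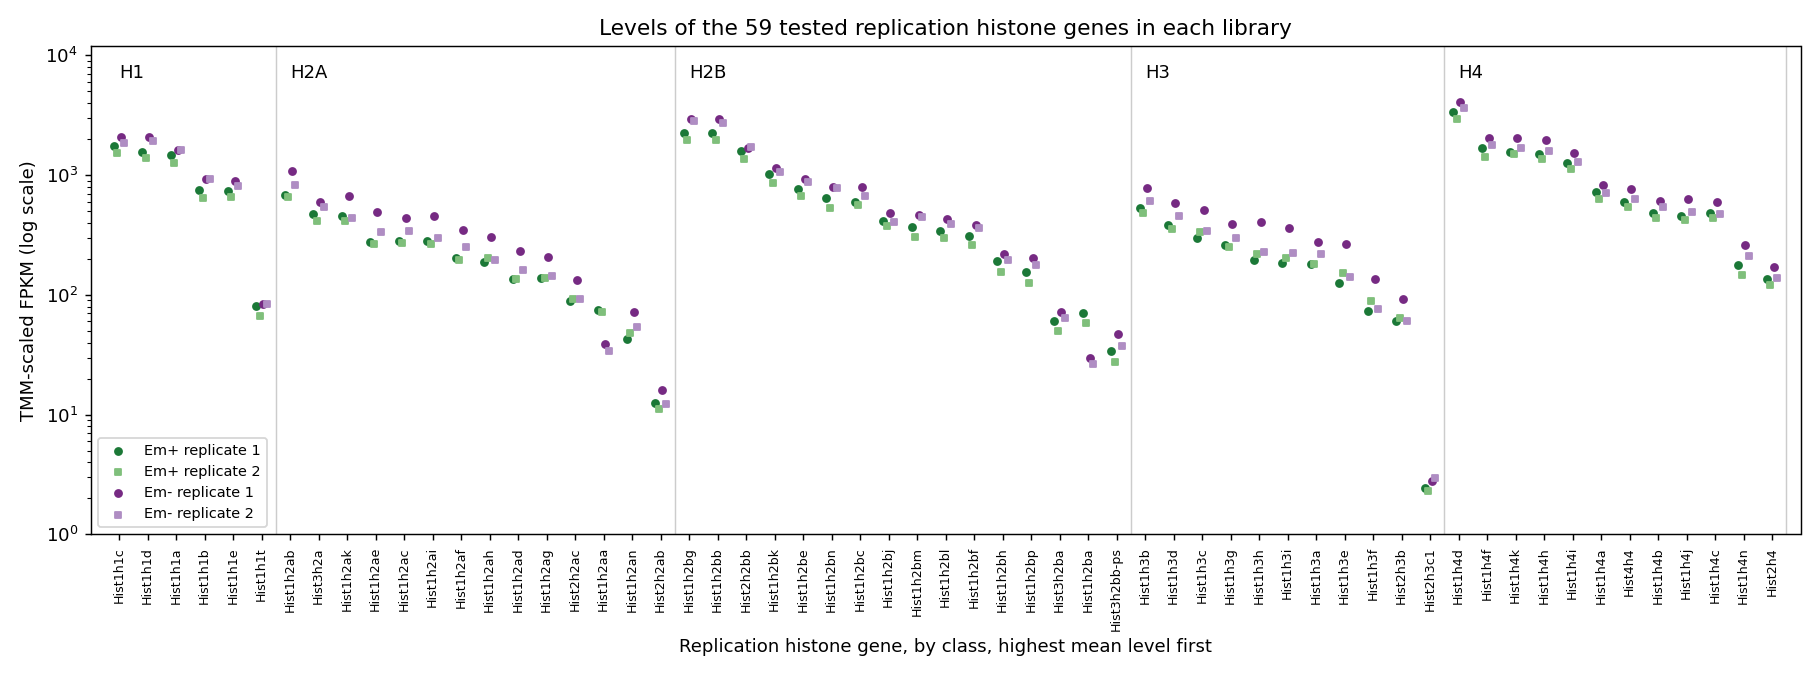
TMM-scaled FPKM (y axis, log scale) of each of the 59 tested genes (x axis) in each library, by class. Levels span from Hist2h3c1 near 2 to 3 FPKM to Hist1h4d, at 2945 to 4067 FPKM, and Em- replicate 1 is the highest point for 53 of the 57 genes outside the testis pair.

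By cluster, Hist1 on chromosome 13 held 91.4 to 92.1% of the histone FPKM in each library. Its 50 genes outside the testis pair had an Em+ mean of 78.2% of the Em- mean, and 40 of 47 tested had both Em+ libraries lower, against 29.6% of all tested genes. The 10 Hist2 genes on chromosome 3 had a ratio of 85.1%, carried mostly by Hist2h2bb, and in 4 of 6 tested both Em+ libraries were lower, against the same 29.6%. Hist2h4 was at 136 and 121 FPKM in Em+ and 172 and 139 in Em- libraries. Hist2h2ac was at 89.7 and 91.8 FPKM in Em+ and 134 and 92.7 in Em- libraries, so that Em- replicate 1 alone was clearly higher. Hist2h3b overlapped between groups, at 60.4 and 64.0 FPKM in Em+ and 92.1 and 60.2 in Em- libraries, and so did Hist2h2ab, at 12.5 and 11.2 FPKM in Em+ and 16.1 and 12.4 in Em- libraries. Hist2h3c1 was close to the expression filter at 2.43 and 2.28 FPKM in Em+ and 2.81 and 2.94 in Em- libraries.

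The small clusters gave ratios in the same range. Hist3 on chromosome 11 had an Em+ mean of 78.1% of the Em- mean. Hist3h2a was at 471 and 416 FPKM in Em+ and 592 and 544 in Em- libraries (log2 fold change −0.36, SE 0.083, edgeR adjusted p = 0.0581). Hist3h2ba was at 60.9 and 50.3 FPKM in Em+ and 72.3 and 64.3 in Em- libraries, and Hist3h2bb-ps, named as a pseudogene, at 34.0 and 27.4 FPKM in Em+ and 47.4 and 37.5 in Em- libraries. Hist4h4 on chromosome 6, the single gene of Hist4, was at 597 and 540 FPKM in Em+ and 768 and 633 in Em- libraries (log2 fold change −0.30, SE 0.10, edgeR adjusted p = 0.133). In all 4 genes both Em+ libraries were lower than both Em- libraries. Hist4h4, Hist3h2ba and Hist2h2bb shared no 50-base stretch of their coding sequence with another gene.

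The testis pair went the other way and was the clearest difference among the 66 genes. Hist1h2ba (chromosome 13, 23933725 to 23934156, mm10), which encodes the testis form of H2B, was at 70.8 and 58.5 FPKM in Em+ and 29.8 and 26.5 in Em- libraries. It rose by 1.20 on the log2 scale (SE 0.13, edgeR adjusted p = 0.00203). Hist1h2aa (chromosome 13, 23934462 to 23934913, mm10), its H2A partner, was at 75.2 and 72.5 FPKM in Em+ and 38.8 and 33.9 in Em- libraries and rose by 1.02 (SE 0.099, edgeR adjusted p = 0.00109). Both Em+ libraries were above both Em- libraries for both genes, which was so for 29.8% of all tested genes. Both were called higher in all 15 alternatives, from 0.98 to 1.33 for Hist1h2ba and from 0.83 to 1.12 for Hist1h2aa. In Hist1h2ba 38.2% of the 50-base stretches of the coding sequence were shared, all with Hist1h2bj, which was not higher in Em+ cells, and in Hist1h2aa 2.35%. In Em+ cells both genes remained well below the abundant members of their classes. None of 6 markers of male germ cells (Acrv1, Prm1, Prm2, Tnp1, Tnp2, Odf1) passed the expression filter. Their sum was 0.961 and 2.32 FPKM in Em+ and 1.40 and 1.20 in Em- libraries, and none of the 6 was at 0 in every library.

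The pair lies at one end of the Hist1 stretch, beyond Hist1h1a. Starts of 8 H2A and H2B pairs lay back to back within 1000 bases of each other in RefSeq, 164 to 281 bases apart. Both genes were below 0 in 7 of these pairs and above 0 in the testis pair, which had the widest spacing. Within the 7, the genes of a pair differed by a median of 0.13 and at most 0.17 in log2 fold change, and the genes of the testis pair differed by 0.18. The Hist1 stretch runs from 21715713 to 23934913 on chromosome 13 and holds 52 of the 66 genes. Within it or within 500 kb there were 31 genes that are not replication histones, of which 14 were tested. Their median log2 fold change was 0.10, against 0.00 for all tested genes. Of the 14, 4 were below 0, against 49.3% of all tested genes, and 1 was called, against 4.64%. The called gene was Zfp184, a zinc finger gene, at 18.6 and 16.8 FPKM in Em+ and 12.3 and 13.0 in Em- libraries (log2 fold change 0.48, edgeR adjusted p = 0.0223). Beyond the testis pair, Scgn was near 0 in all libraries, and Lrrc16a had a log2 fold change of 0.27 (edgeR adjusted p = 0.173).

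**Figure D4:**
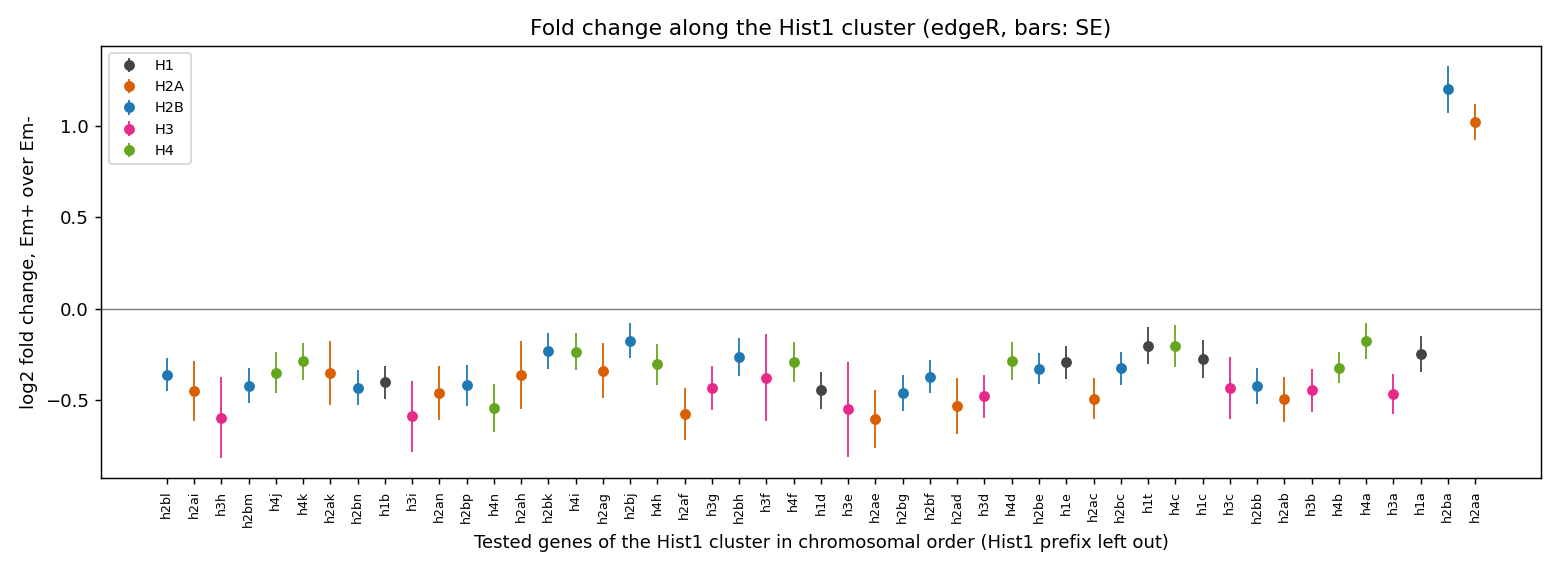
Log2 fold change of Em+ over Em- (y axis, bars: SE) for the tested Hist1 genes in chromosomal order (x axis), coloured by class. The genes lie below 0 along the whole stretch except Hist1h2ba and Hist1h2aa at its right end, at 1.20 and 1.02.

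The 7 genes below the expression filter have no test. Hist1h2ao, Hist1h2ap, Hist2h2aa1, Hist2h2aa2 and Hist2h3c2 had every 50-base stretch of their coding sequence in common with another gene, and Hist1h2br 92.1%. Their levels reached at most 3.00 FPKM (Hist2h2aa2, Em- replicate 2, 1.53 as deposited). The Em+ mean was above the Em- mean in Hist1h2ao (0.32 against 0.24 FPKM), Hist1h2ap (0.25 against 0.12) and Hist2h3c2 (1.85 against 1.58), and below it in the others. Hist1h2ao and Hist1h2ap had only 1 to 4 counts per library. In the fit without the filter, 61 of 64 genes outside the testis pair had a log2 fold change below 0. Hist2h2be, which shared none, was at 1.60 and 1.76 FPKM in Em+ and 2.08 and 1.75 in Em- libraries, with overlapping groups.

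Base composition moved with the difference between the 2 Em- libraries. The GC content of the coding sequence ranged from 55.4 to 70.0%, with class medians of 59.4% for H1, 62.6% for H2B, 64.9% for H4, 66.9% for H3 and 69.0% for H2A. Over 56 tested genes its Pearson correlation with the log2 ratio of Em- replicate 1 over Em- replicate 2 was 0.72, and with that of Em+ replicate 1 over Em+ replicate 2 it was −0.67. Its correlation with the log2 fold change was −0.45. These are descriptions over genes that share libraries and sequence. Among 188 other tested genes with a GC content of at least 65%, the median log2 ratio between the Em- libraries was 0.10 and the median log2 fold change −0.02, and 30.9% had both Em+ libraries lower. With a per-library correction for GC content, an alternative added after seeing the data, all 57 genes kept a log2 fold change below 0, the median was −0.34 and 8 were called lower, against 2.78% of all tested genes.

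**Figure D5:**
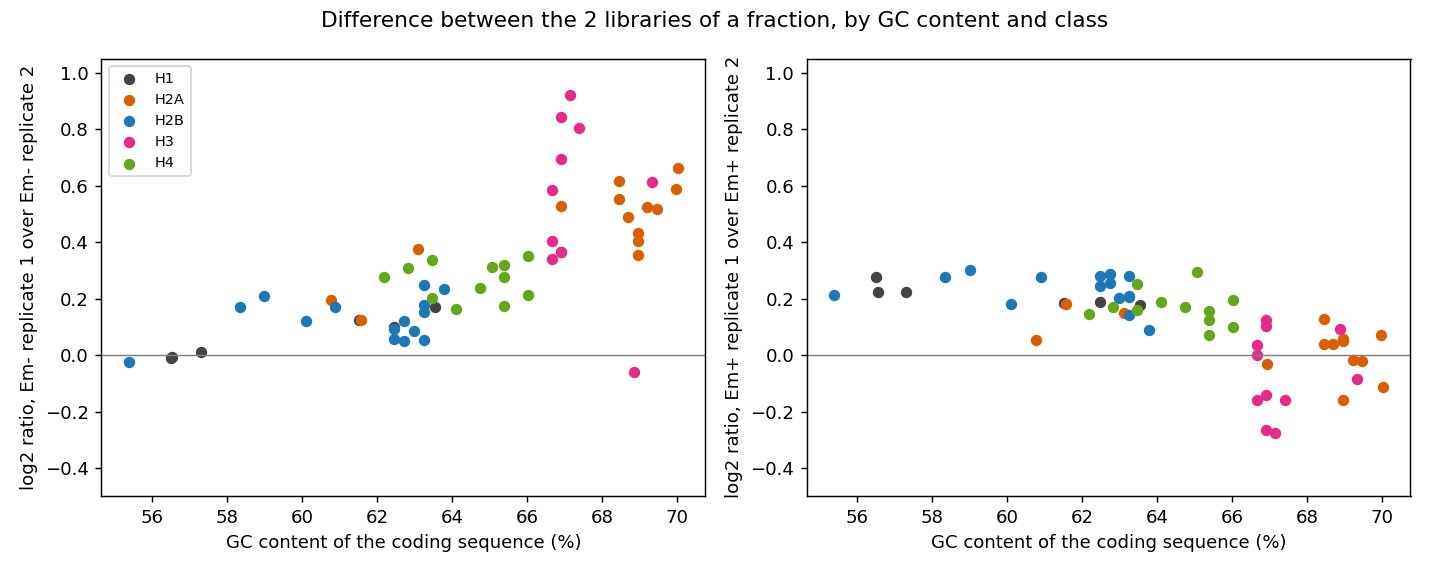
GC content of the coding sequence (x axes, %) against the log2 ratio of replicate 1 over replicate 2 in the Em- fraction (left) and the Em+ fraction (right), 1 point per tested gene, coloured by class. Most H3 and H2A genes lie at the GC-rich end, with high ratios in the Em- fraction and low ratios in the Em+ fraction, while the H3 gene Hist2h3c1 has the lowest Em- ratio of all (−0.06).

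Genes that act on replication histone mRNA were looked at by list. Of 31 tested genes for transcription and 3′ end processing, 1 was called, near the share of 4.64% over all tested genes. The median log2 fold change of the 31 was −0.03. The called gene was Nelfa, which encodes a part of the negative elongation factor, at 77.9 and 84.3 FPKM in Em+ and 14.7 and 16.1 in Em- libraries (log2 fold change 2.40, SE 0.082, edgeR adjusted p = 3.76e-06). Slbp, the stem-loop binding protein, was at 37.5 and 35.6 FPKM in Em+ and 38.9 and 38.1 in Em- libraries (log2 fold change −0.07, SE 0.073, edgeR adjusted p = 0.551). Npat, the coactivator that recruits transcription to the clusters, was at 27.4 and 30.0 FPKM in Em+ and 27.5 and 28.4 in Em- libraries (log2 fold change 0.04). Lsm11, of the U7 particle that cuts histone pre-mRNA, had a log2 fold change of −0.13 (edgeR adjusted p = 0.311). None of 20 histone mRNA decay genes (median −0.03) and none of 17 histone chaperone genes (median −0.05) was called, where 4.64% of all tested genes were. Cdk2 of the first list (log2 fold change −0.28) and the decay gene Lsm4 (−0.36) missed the threshold narrowly (edgeR adjusted p = 0.0519 each). Both had both Em+ libraries lower. Next nearest was the decay gene Xrn1, with both Em+ libraries higher (0.38, edgeR adjusted p = 0.0708). At an unadjusted p under 0.05 there were 5 of the 31, 5 of the 20 and 4 of the 17, against 25.3% of all tested genes in either direction.

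None of 40 genes of S phase was called, where 4.64% of all tested genes were. Their median log2 fold change was −0.14, 33 of 40 were below 0 (49.3% of all tested genes), and 27 had both Em+ libraries lower (29.6% of all tested genes). At an unadjusted p under 0.05 there were 10 of the 40, all of them lower. Over all tested genes 10.7% were lower at that p, and 25.3% reached it in either direction. Nearest to the adjusted threshold was Gins2 (log2 fold change −0.28, edgeR adjusted p = 0.0686). Pcna, the sliding clamp of DNA polymerase, was at 76.1 and 64.1 FPKM in Em+ and 81.0 and 77.5 in Em- libraries (log2 fold change −0.18, edgeR adjusted p = 0.272). The signs of the S-phase values move with the histone values, and their part in the histone difference was not tested.

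Replacement histones are also made outside S phase, mostly from mRNAs with poly(A) tails. None of the 11 tested was called, against 4.64% of all tested genes, and the median log2 fold change was −0.15. An unadjusted p under 0.05 was reached by 3, near the share of 25.3% over all tested genes, and 9 were below 0, against 49.3%. H3f3b, which encodes H3.3, was at 365 and 339 FPKM in Em+ and 430 and 418 in Em- libraries (log2 fold change −0.27, SE 0.079, edgeR adjusted p = 0.0976). H3f3a, the second H3.3 gene, had a log2 fold change of −0.15 and H2afz, which encodes H2A.Z, one of −0.09 (edgeR adjusted p = 0.300 and 0.401). Among 121 tested genes for other RNAs without poly(A) tails, such as small nuclear and nucleolar RNAs, none was called, 11 had an unadjusted p under 0.05, below the share of 25.3% over all tested genes, and the median was 0.01. Their summed level ranged from 133550 to 148820 FPKM. Rn45s, in this list, was at 6726 and 14179 FPKM in Em+ and 7499 and 6812 in Em- libraries, so that Em+ replicate 2 stood apart. Leaving Rn45s out changed none of the 3 histone calls in direction or number.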

How the data were processed

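The authors deposited tables with 1 line per transcript that hold, per the file headers, a raw count and an FPKM value per library; the RefSeq table was used, with the known-gene and Ensembl tables as alternatives. The submitters' processing notes name Bowtie2 and build mm10. For the counting program, strand and multiply matching reads, the method is not given in the sources used here. The count column of Em- replicate 1 was empty in the RefSeq table, and its counts were computed from FPKM, length and library total. In the other libraries this returned the deposited count for 99.935 to 99.951% of 24538 transcripts.

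Counts and FPKM were summed per symbol. Genes averaging at least 1 deposited FPKM were tested with edgeR 4.0.16 (R 4.3.3, quasi-likelihood, TMM, two-sided, Benjamini-Hochberg over 12050 genes, threshold 0.05). The fit was checked on simulated data. The SE comes from the F statistic. Members and lists were chosen with earlier results of these data known. Genes named were those called, the 3 highest and the extreme fold changes per class, the testis pair, Hist2 to Hist4, and fixed regulators. Hist1h2bj, Hist1h3f, Pcna, Gins2, Cdk2, Lsm4, Xrn1, Zfp184, Scgn, Lrrc16a and the single markers were named after their values were seen. Alternatives were DESeq2 1.42.0, limma 3.58.1, other filters and scaling, left-out libraries, the replicate block, other tables and a GC offset. The labels do not say whether equal replicate numbers pair the libraries. Over tested genes, the difference of replicate 1 and replicate 2 had a correlation of 0.02 between the fractions, which cannot settle this.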

Additional observations from a re-analysis of the deposited data

How the results depend on the processing

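The direction of the class and cluster sums and of the histone median was the same in every alternative that gave a value. Of 448 values of 30 named genes, 351 kept direction and side of the threshold, 90 newly passed it, 6 lost the call (all of Hist1h2bg) and 1 changed sign: Hist2h3b, which ran from −0.57 to 0.045 over the left-out libraries. Against 3 histone calls, DESeq2 gave 24, no filter 24, a filter of 10 counts 21, no TMM 28 and the GC offset 10; leaving out 1 library gave 2 to 44. Against 559 calls over all genes, limma gave 293 (pseudocount 1) and 269 (0.1), no filter 1178 and the count filter 1174; leaving out 1 library gave 490 to 4992. Against 1 call in the lists on histone regulation and S phase, DESeq2 gave 4, no filter 3, the count filter 4, no TMM 4 and the GC offset 7; leaving out 1 library gave 1 to 93. Without TMM the log2 ratios of the sums were −0.48 (H1), −0.51 (H2B), −0.44 (H4), −0.51 (Hist1), −0.39 (Hist2) and −0.51 (Hist3), and the histone median was −0.51 while the median of all genes was −0.16; limma with pseudocount 0.1 gave −0.50, also with −0.16 over all genes. Over the left-out libraries the log2 ratio of the sum ran from −0.66 to −0.21 for H2A and from −0.72 to −0.19 for H3, and the histone median from −0.46 to −0.21, the value nearest 0 being that without Em- replicate 1 each time. The 15 alternatives called 54 of the 57 genes lower at least once and none of them more than 9 times. The cause of these differences was not tested.

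With the replicate number as a block, 39 histone genes were called, 37 of them lower, where 3.83% of all tested genes were lower. The same fit called 1552 genes over all and 15 in the lists, and the histone median was −0.33. The labels do not say whether equal numbers pair the libraries, and there are only 2 such pairs. Leaving out a library leaves 1 in its group, which is assumed to vary like the others. The tested histone gene with the fewest counts, Hist2h3c1, had 24 to 37 per library.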
